A study of Mus musculus with 6 samples.

Results

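The genes described here encode the ligands, receptors, secreted modulators and intracellular relay proteins of Wnt signalling. Every probe set was taken whose single gene symbol is Wnt, Fzd, Sfrp or Dkk with a number, or begins with Lrp5, Lrp6, Axin, Tcf7, Lef1, Ctnnb or Dvl. This gave 77 of the 22690 probe sets on the array, for 49 genes, and no level of expression was required. By role they were 23 probe sets for 19 ligand genes, 20 for 11 receptor genes and 12 for 8 secreted modulators. Another 15 were for 8 cytoplasmic genes and 7 for 3 nuclear genes. Roles were set by gene symbol alone.

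The samples were 3 of superficial masseter, a chewing muscle, and 3 of tibialis anterior, the muscle that lifts the foot, all from untreated female C57Bl/6 mice 6 months old. One short-oligonucleotide array was hybridised per sample, and the comparison asked which transcripts differ between jaw and leg muscle. A probe set is a group of short probes for 1 transcript, and its value is a signal intensity in array units. No label states that each sample of a muscle is from a mouse of its own, so p-values rest on the spread between these samples, part of which may be technical. The fit, by limma, also draws the spread of each probe set toward that of probe sets with similar signal. Its standard errors (SE) and p-values therefore do not measure the spread of these samples alone.

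Wnt proteins are secreted, lipid-modified signals that bind frizzled receptors together with the co-receptors Lrp5 and Lrp6. Dishevelled proteins then halt a complex built on axin that destroys beta-catenin, and beta-catenin enters the nucleus to act with the Tcf and Lef factors. Other branches run through frizzled and dishevelled without beta-catenin. In mouse skeletal muscle the pathway is known for roles in embryonic patterning, in satellite cells (the stem cells of the fibre) and at the nerve-muscle synapse.

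Of the 49 genes, 1 differed between the muscles past the threshold, an adjusted p of 0.05. The receptor gene Fzd7 had 2.25-fold more transcript signal in the masseter. A probe set was tested when its mean over all 6 arrays reached a signal of 28.6, the 40th percentile of the array, and 33 of the 77 probe sets were, for 28 genes. The other 32 of these 33 did not pass. Over all 13576 probe sets tested, 1.18 percent passed in either direction and 0.56 percent passed as higher in the masseter and 0.619 percent as higher in the tibialis anterior.

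The regions upstream of the 3 receptor genes with the smallest p-values, Fzd7, Fzd4 and Fzd9, are shown. Only Fzd7 of these passed the threshold. Each line holds the 250 bases before the annotated start, read along the gene's strand, from RefSeq on build GRCm38.p6. Fzd7 lies at chr1:59481897-59482146 on the plus strand, Fzd4 at chr7:89404116-89404365 on the plus strand and Fzd9 at chr5:135251048-135251297 on the minus strand. Capitals mark the GC box GGGCGG on either strand, which is CCGCCC when it lies on the other strand.
Fzd7: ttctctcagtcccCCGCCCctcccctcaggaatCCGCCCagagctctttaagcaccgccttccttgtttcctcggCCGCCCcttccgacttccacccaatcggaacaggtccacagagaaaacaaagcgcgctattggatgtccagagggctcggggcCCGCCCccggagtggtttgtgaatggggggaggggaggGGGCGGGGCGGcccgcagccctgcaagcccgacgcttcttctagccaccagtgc
Fzd4: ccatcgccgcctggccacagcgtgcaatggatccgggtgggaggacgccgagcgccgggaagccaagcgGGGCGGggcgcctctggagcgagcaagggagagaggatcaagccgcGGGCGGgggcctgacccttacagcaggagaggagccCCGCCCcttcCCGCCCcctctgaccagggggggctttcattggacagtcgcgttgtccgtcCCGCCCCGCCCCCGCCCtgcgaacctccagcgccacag
Fzd9: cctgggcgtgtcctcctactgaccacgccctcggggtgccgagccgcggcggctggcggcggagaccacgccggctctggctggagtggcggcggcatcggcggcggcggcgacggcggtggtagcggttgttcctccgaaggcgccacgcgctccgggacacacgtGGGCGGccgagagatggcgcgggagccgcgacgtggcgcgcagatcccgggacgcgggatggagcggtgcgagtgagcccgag
The Fzd7 sequence held 6 GC boxes and the Fzd4 sequence 7, adjoining ones sharing a base in both, and the Fzd9 sequence held 1. The GC content was 65.2 percent for Fzd7, 72.8 percent for Fzd4 and 76.4 percent for Fzd9. Searches on both strands for the Tcf/Lef core CTTTGAT and the E-box CAGCTG, a core bound by MyoD, gave 0 matches in these windows. RefSeq held 43 such windows for 34 of the 49 genes. Of these 43, 74.4 percent held a GC box, 4.65 percent the Tcf/Lef core and 9.3 percent the E-box, beside 32.7, 3.21 and 13 percent of all 32851 windows in the table. The median GC content was 68.0 percent in the windows of these genes and 52.4 percent in all windows.

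The called difference lay among the frizzled receptors, and Fzd4 and Fzd9 were the other receptor genes with an unadjusted p under 0.05. Fzd7, a receptor through which Wnt7a acts on satellite cells in mice, is read by probe set 1450044_at. Its signals were 696.6, 405.8 and 606.9 on arrays 1, 2 and 3 of the masseter, against 275.1, 261.9 and 208.2 on those of the tibialis anterior. All 3 masseter arrays lay above all 3 tibialis anterior arrays, and masseter 2 was the lowest of its group. The log2 difference, masseter minus tibialis anterior, was 1.17 ± 0.20 (limma's SE, n = 3 per muscle), with limma's adjusted p = 0.0395. Within the numbered pairs the differences were 1.34, 0.63 and 1.54. By p-value Fzd7 ranked 132 among the 160 probe sets past the threshold.

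The Fzd7 call held in 6 of 15 alternative fits, and all of them kept it higher in the masseter, by 0.99 to 1.44. It ended with quantile normalization (adjusted p = 0.0547), with eBayes without the intensity trend (adjusted p = 0.259), without replicate 1 or 3, and without any single array other than masseter 2 (adjusted p from 0.0936 to 0.134). Paired SAM, the test that the study's design text names, did not call it. The gene's other probe set, 1450043_at, gave signals between 2.6 and 4.3 on all 6 arrays, far under the filter level, where a ratio is imprecise. The Fzd7 result rests on 1 of its 2 probe sets.

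**Figure D1:**
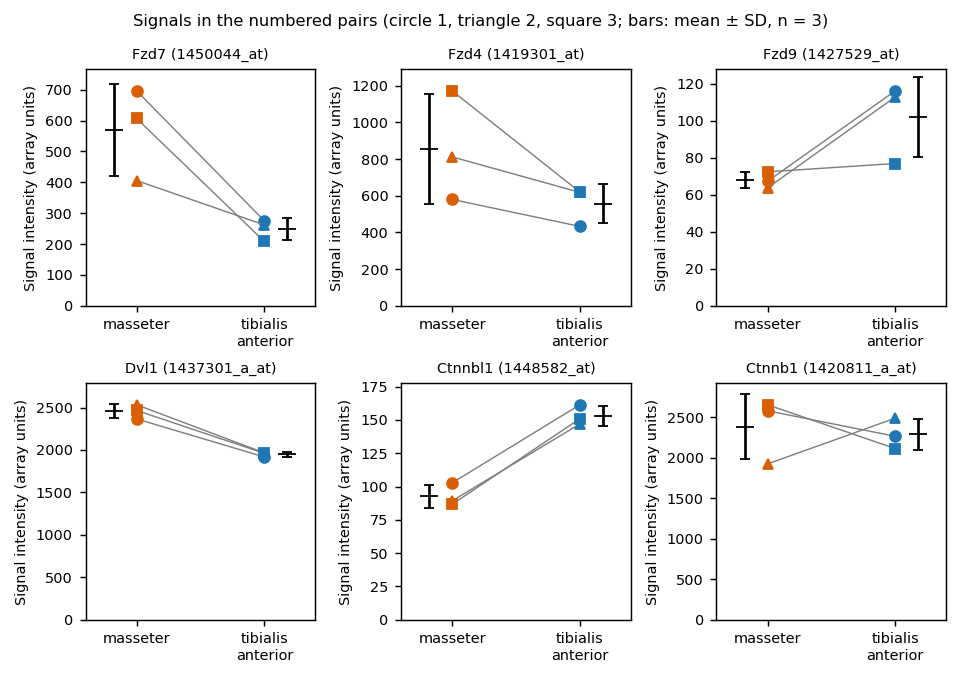
Signal intensity in array units on each array for 6 probe sets, with lines joining masseter and tibialis anterior samples of the same number and black bars for the mean ± SD (n = 3). Fzd7 and Dvl1 were higher and Ctnnbl1 and Fzd9 lower in the masseter with no overlap of the groups, while those of Fzd4 and Ctnnb1 overlapped.

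Fzd4 is the frizzled that also binds Norrin and is known from blood vessel growth in the retina. Its signals were 580.2, 812.4 and 1172.8 on arrays 1, 2 and 3 of the masseter, against 432.9, 618.7 and 620.5 on those of the tibialis anterior. The groups overlapped, since masseter 1 lay under 2 of the tibialis anterior arrays, although the masseter was higher in 3 of 3 numbered pairs. The difference of 0.58 ± 0.16 did not pass (adjusted p = 0.166). Its second probe set had signals from 1.7 to 29.0 and was under the filter.

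Fzd9, another frizzled, had signals of 67.3, 63.7 and 72.4 in the masseter, against 116.2, 112.9 and 76.9 in the tibialis anterior. The groups did not overlap, but tibialis anterior 3 lay close to the masseter arrays. The difference of -0.57 ± 0.24 did not pass (adjusted p = 0.373). The other tested frizzleds were nearer to 0. Fzd8 differed by -0.27 ± 0.28, with signals of 63.2, 45.5 and 42.9 against 63.3, 55.8 and 61.1. Fzd6 differed by 0.12 ± 0.26, with signals of 57.8, 77.2 and 74.3 against 65.8, 77.7 and 50.5. These groups overlapped in both genes. The 2 tested probe sets of Fzd2 differed in sign, at 0.23 ± 0.30 (50.3, 50.6 and 66.4 against 59.0, 35.3 and 49.8) and -0.06 ± 0.27 (65.0, 66.8 and 48.7 against 54.7, 65.4 and 66.7).

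The co-receptor Lrp6 had signals of 122.3, 100.3 and 121.0 in the masseter, against 126.5, 96.8 and 144.3 in the tibialis anterior, which overlapped. Its difference of -0.08 ± 0.19 had a 95% interval from -0.52 to 0.36, so a change as large as that of Fzd7 lies outside it. The probe set of the other co-receptor, Lrp5, was under the filter with signals from 1.5 to 4.9. In all, 12 of the 20 receptor probe sets were under the filter, and Fzd1, Fzd3, Fzd5 and Lrp5 had none above it. Of the 8 tested, 1 was higher in the masseter past the threshold and 7 did not pass, with a median difference of 0.03 beside 0.02 over all 13576 probe sets.

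**Figure D2:**
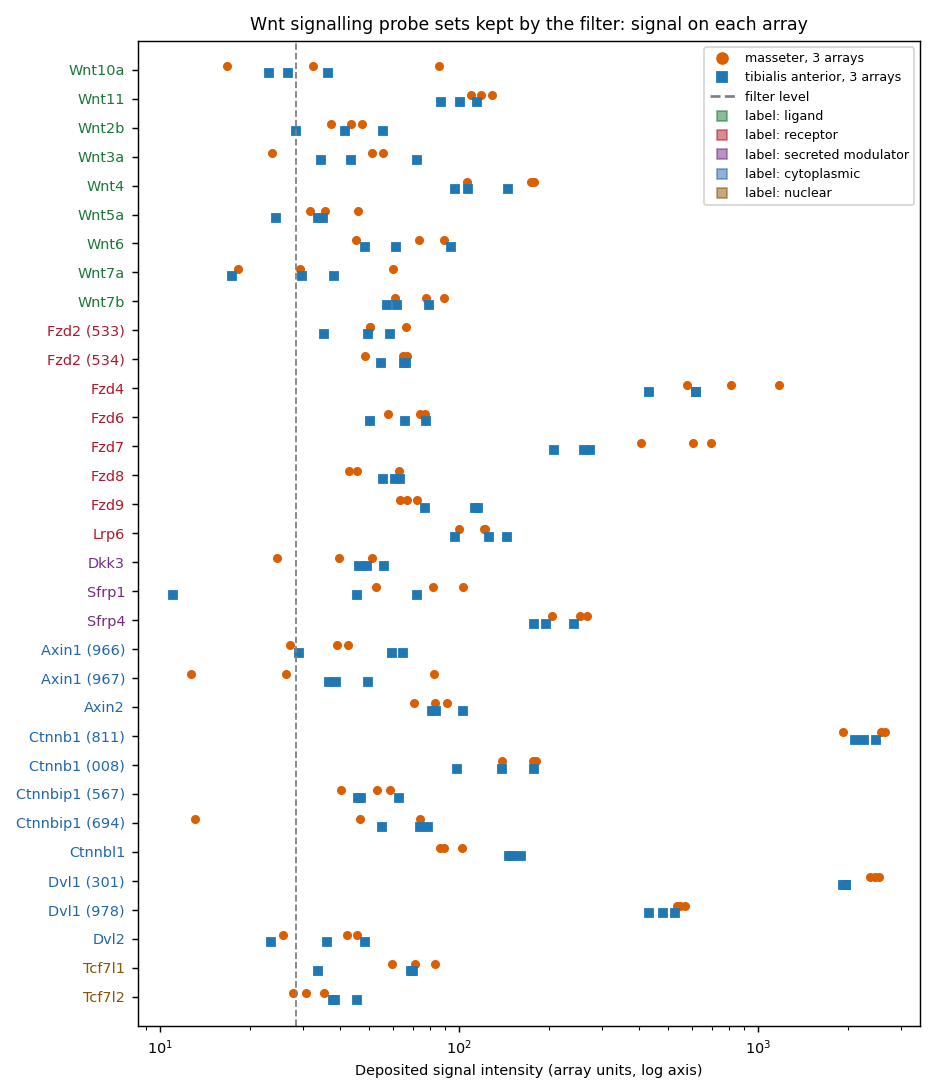
Signal intensity in array units, on a log axis, of the 33 tested probe sets on each of the 6 arrays, with the filter level dashed and gene labels coloured by role (numbers in brackets are the last digits of the probe set where a gene has several). Among receptors, the masseter arrays lie above all tibialis anterior arrays for Fzd7 and below them for Fzd9, and levels of different probe sets cannot be set against each other.

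Cell types other than muscle fibres can carry frizzleds, so marker lists of several were summed on each array. In whole muscle, more cells of a type and more transcript per cell cannot be told apart. A sum can rest on 1 gene, so sums that were separate between the muscles are also given with genes left out. Left out was the gene of greatest difference in mean linear signal or, for skeletal muscle, the genes past the threshold. This step was added after the values were seen. For 8 satellite cell markers the sum was 685.5 to 789.1 in the masseter, against 547.4 to 640.9 in the tibialis anterior. Without Cd34, which vessel and connective tissue cells share, the ranges overlapped, at 394.1 to 436.6 and 388.3 to 502.9. Cd34 was the 1 of that list's 5 tested genes past the threshold, with signals of 291.4, 352.9 and 285.1 against 138.0, 159.1 and 170.5. Of the 5, 2 had a positive difference, and Pax7, Myf5 and Calcr were under the filter. Cdh15, the cadherin of muscle precursor cells, was at 107.4, 136.6 and 203.8 against 141.9, 120.5 and 175.3, which overlapped.

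The other marker lists were mixed as well. The sum of 10 fibroblast markers was 17787 to 21061 in the masseter, against 11674 to 15360. Without Gsn, an actin-severing protein, it was 6441 to 7078, against 5086 to 6429. Of the 10, 6 differences were positive and 4 negative. Dpt, a matrix protein, passed as higher in the masseter (1.19 ± 0.19), while Col1a1, a chain of type I collagen, was at -1.26 ± 0.38 and did not pass. For 6 measured adipocyte markers the sum was 16846 to 18253, against 12337 to 14852. Without Lpl, a lipase that muscle also makes, the ranges overlapped, at 4191 to 6037 and 3009 to 5018. All 5 tested adipocyte markers had a positive difference, and Adipoq, the adipocyte hormone adiponectin, passed (1.26 ± 0.17, adjusted p = 0.0167 by limma).

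For 5 measured Schwann cell and nerve markers the sum was 996.1 to 1115, against 601.4 to 757.9. Without the myelin gene Mbp it was 495.8 to 591.3, against 354.1 to 454.1, and 0 of the 4 tested passed by limma, with 2 at an unadjusted p under 0.05. For 8 smooth muscle and pericyte markers it was 7944 to 8428, against 8658 to 9479. Without the pericyte gene Rgs5 those ranges overlapped, at 5447 to 5714 and 4965 to 6405, and 4 of the 8 differences were positive. Sums of endothelial, tendon, immune and skin markers overlapped between the muscles. Of 5 tested tendon markers, 2 differences were positive and 3 negative. Thbs4 passed as lower in the masseter (-1.65 ± 0.25, adjusted p = 0.025 by limma), while Kera was at 2.38 ± 0.47 and did not pass. For 10 skeletal muscle markers, all above the filter on average, the sum was 130200 to 163496, against 168794 to 172258. Myh4 and Actn3, both fast-fibre genes, were the 2 of that list past the threshold. The other 8, some of them also fast-fibre genes, did not pass. Without Myh4 and Actn3 the ranges overlapped, at 117694 to 145116 and 132741 to 139289. The part of any of these cells in the Fzd7 and Fzd4 values was not tested.

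Salivary gland signal differed widely among masseter arrays, and the RNA quality ratio of Gapdh, but not clearly that of Actb, moved with the muscle. The summed signal of 9 measured salivary genes was 52143, 7697 and 3267 on masseter arrays 1, 2 and 3, against 2490 to 5814 in the tibialis anterior. Of the 6 tested, 5 had a positive difference, and all 6 had an unadjusted p under 0.05 by limma. Pip (4.77 ± 0.61) and Smr3a (3.14 ± 0.50) passed as higher in the masseter, although the groups of each overlapped. Smr2 went the other way (-0.64 ± 0.25) and did not pass. In the masseter, Fzd7 was highest on array 1 and lowest on array 2, and Fzd4 was highest on array 3 and lowest on array 1. The part of gland tissue in these values was not tested. The ratio of the Gapdh control's signal at the end of the transcript to that at its beginning was 2.66 ± 0.23 in the masseter, against 1.94 ± 0.11 in the tibialis anterior (SD, n = 3), with an exact two-sided permutation p = 0.1, the smallest that 3 against 3 allows. For Actb it was 2.96 ± 0.34 and 2.70 ± 0.11 (exact permutation p = 0.3). The part of RNA quality in the differences was not tested.

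Among the Wnt ligands, 0 of the 9 tested genes passed in either direction by limma, and 0 had an unadjusted p under 0.05. Wnt4, a ligand known from kidney and ovary development, had signals of 177.8, 106.2 and 174.0 in the masseter, against 145.8, 107.2 and 96.9 in the tibialis anterior. The groups overlapped through masseter 2, and the difference was 0.37 ± 0.22 (adjusted p = 0.543). Wnt11, which acts in cell movements of the embryo, had signals of 109.3, 118.4 and 129.1 against 114.9, 87.0 and 100.8. Its groups overlapped too, with a difference of 0.24 ± 0.21 (adjusted p = 0.691) and a 95% interval from -0.23 to 0.72.

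Wnt7b, a ligand of lung and bone development, differed by 0.19 ± 0.23, with signals of 60.9, 89.1 and 77.9 against 57.5, 79.4 and 62.0. Wnt5a, the best known ligand of the branch without beta-catenin, differed by 0.28 ± 0.40, with signals of 31.7, 46.1 and 35.8 against 33.7, 35.1 and 24.5, close to the filter level. The other tested ligands were Wnt2b, Wnt3a, Wnt6, Wnt7a and Wnt10a. Of the 9, 8 had a positive difference, between 0.03 and 0.37, and Wnt3a was at -0.23, while 52.9 percent of all 13576 probe sets had a positive difference. None of the 9 ligand intervals left out 0. In 1 of the 9, Wnt7b, the 3 numbered pairs shared a sign. The median of the 9 was 0.23.

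Another 14 ligand probe sets were under the filter, with signals from 0.4 to 65.2. They were all the probe sets of Wnt1, Wnt2, Wnt3, Wnt5b, Wnt8a, Wnt8b, Wnt9a, Wnt9b, Wnt10b and Wnt16, and the second probe sets of Wnt5a and Wnt7b. In 6 of the 14 no array reached the filter level. Such signals lie near background, where a ratio is imprecise, and in the fit without a filter the smallest adjusted p among them was 0.555.

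**Figure D3:**
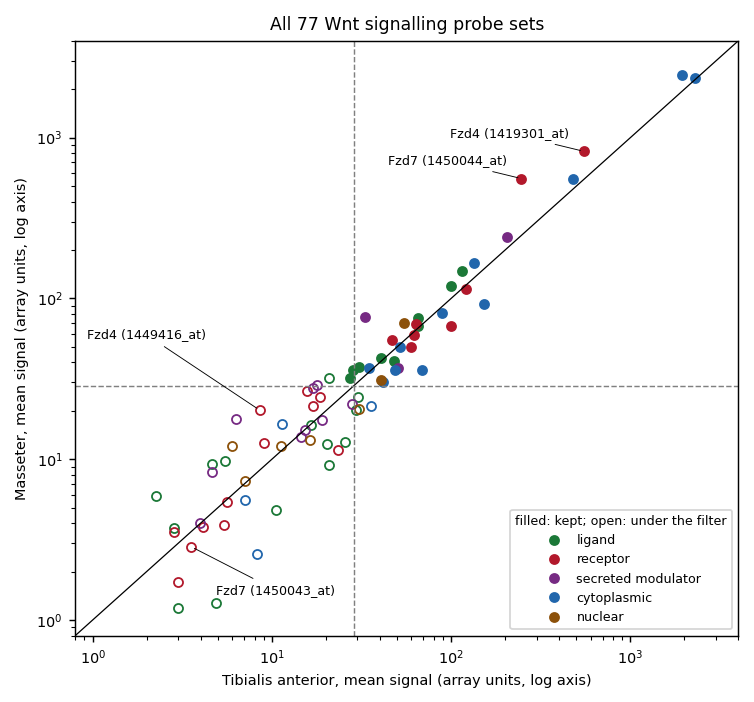
Mean signal of each of the 77 probe sets in the masseter against that in the tibialis anterior, both log axes in array units, coloured by role, with filled points for the 33 tested, open points for the 44 under the filter, dashed lines at the filter level and a solid line of equal signal. The labelled probe sets of Fzd7 and Fzd4 fall in 2 places, 1 above the filter and 1 under it.

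The secreted modulators bind Wnt proteins (Sfrp) or the co-receptors (Dkk). Of the 3 tested, 0 passed by limma and 1 had an unadjusted p under 0.05. That was Sfrp1, through probe set 1438620_x_at, whose signals were 81.9, 52.9 and 102.8 in the masseter, against 11.1, 45.5 and 72.5 in the tibialis anterior. The groups overlapped, and the mean rested on tibialis anterior 1, the lowest array by far. The difference was 1.20 ± 0.50 (adjusted p = 0.362), and the numbered pairs gave 2.88, 0.22 and 0.50. The suffix of this probe set marks probes that can also bind other transcripts. The other Sfrp1 probe sets were under the filter and ranged from 3.2 to 38.2.

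Sfrp4, a Wnt-binding protein known from bone, had signals of 204.1, 254.1 and 268.2 in the masseter, against 242.8, 195.4 and 177.9 in the tibialis anterior. The groups overlapped (0.24 ± 0.21, adjusted p = 0.693). Dkk3, the divergent member of the Dickkopf family, had 24.7, 51.4 and 39.8 against 46.2, 49.2 and 56.2, which also overlapped (-0.45 ± 0.35, adjusted p = 0.657). Dkk1, Dkk2, Dkk4, Sfrp2 and Sfrp5 had no probe set above the filter. Signals of the 9 modulator probe sets under it ran from 2.5 to 40.1.

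In the cytoplasm, the dishevelled gene Dvl1 was read by 2 bright probe sets that moved alike. The signals of 1437301_a_at were 2366, 2533 and 2466 in the masseter, against 1918, 1966 and 1961 in the tibialis anterior. Arrays of a muscle lay close together and the groups did not overlap, yet the difference was small, 0.33 ± 0.12, and did not pass (adjusted p = 0.285). The other probe set had 569.5, 548.0 and 536.0 against 482.0, 527.4 and 430.4, also without overlap, and differed by 0.20 ± 0.15 (adjusted p = 0.634). Dvl2 differed by 0.09 ± 0.46 at signals from 23.6 to 48.4. Its other probe set was at -1.68, but under the filter with signals from 1.4 to 12.7, where a ratio is imprecise. Dvl3 was under the filter at 4.7 to 11.8.

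Beta-catenin itself, the product of Ctnnb1, was read by a bright probe set whose difference lay near 0. Its brightest probe set, 1420811_a_at, had signals of 2577, 1922 and 2652 in the masseter, against 2262, 2487 and 2111 in the tibialis anterior. The groups overlapped, and the difference of 0.05 ± 0.16 had a 95% interval from -0.32 to 0.42. A second tested probe set had 139.6, 181.1 and 177.2 against 177.7, 98.2 and 139.7 (0.29 ± 0.25). Transcript levels do not report the amount of beta-catenin protein, which the pathway controls by degradation.

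Axin1 is the scaffold of the destruction complex and Axin2 its feedback counterpart, whose transcription beta-catenin raises in many tissues. Axin2 had signals of 83.3, 70.9 and 91.3 in the masseter, against 83.8, 103.5 and 81.5 in the tibialis anterior. The groups overlapped, and the difference of -0.13 ± 0.23 (adjusted p = 0.87) had a 95% interval from -0.67 to 0.41. The 2 probe sets of Axin1 differed by -0.44 ± 0.42 and -0.45 ± 0.58, at signals from 12.7 to 82.7 that crossed the filter level.

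Ctnnbl1 and Ctnnbip1 fell under the rule by their symbols. Ctnnbl1 resembles beta-catenin in its repeats but is a nuclear protein tied to splicing. Its signals were 102.7, 89.2 and 86.6 in the masseter, against 161.4, 147.0 and 150.9 in the tibialis anterior. The groups stood clear of each other, with all numbered pairs between -0.80 and -0.65, and the difference of -0.72 ± 0.19 did not pass (adjusted p = 0.133). Ctnnbip1, also called ICAT, blocks the binding of beta-catenin to Tcf factors. One of its probe sets differed by -0.94 ± 0.41 (adjusted p = 0.382), with signals of 74.3, 13.1 and 46.8 against 78.6, 55.4 and 74.0, where masseter 2 was far below the rest. The other differed by -0.04 ± 0.29 (40.4, 53.4 and 58.6 against 47.2, 46.0 and 63.0).

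Of the 11 tested probe sets grouped as cytoplasmic by symbol, 0 passed by limma and 3 had an unadjusted p under 0.05. These were Dvl1, Ctnnbip1 and Ctnnbl1, which is in this group by its symbol although its protein is nuclear. In the nucleus, 0 of 2 passed, and 0 had an unadjusted p under 0.05. Tcf7l1, mostly a repressor, had signals of 82.9, 71.3 and 59.7 against 69.1, 33.7 and 70.1 (0.37 ± 0.31, adjusted p = 0.685), with overlap. Tcf7l2, a main partner of beta-catenin, had 35.3, 27.9 and 30.8 against 45.5, 38.4 and 37.8. Its groups did not overlap, but the signals lay near the filter level and the difference of -0.37 ± 0.37 did not pass (adjusted p = 0.746). Its other 3 probe sets were under the filter, as was the only one of Lef1, at 2.0 to 19.6.

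**Figure D4:**
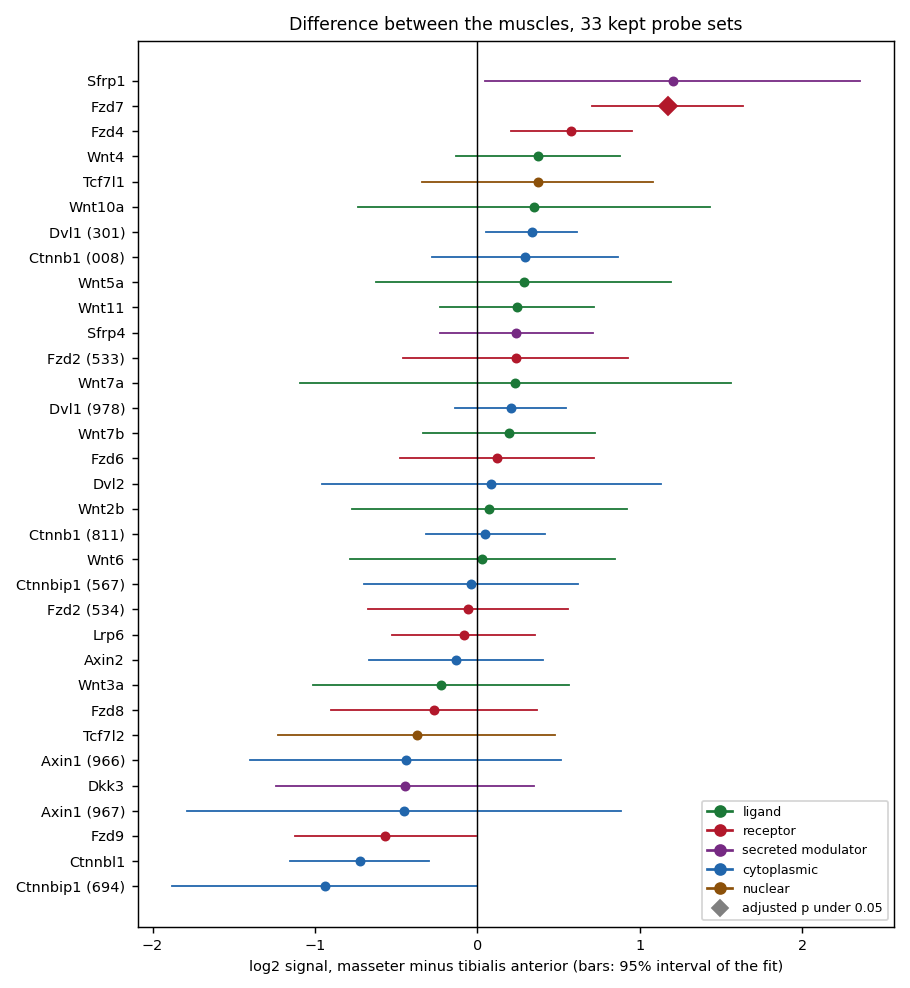
Log2 difference, masseter minus tibialis anterior, of the 33 tested probe sets, ordered by size and coloured by role, with 95% intervals of the limma fit as bars. Fzd7, drawn as a diamond, is the 1 past the threshold, Sfrp1 has a slightly greater difference with a far wider interval, and 18 intervals lie wholly between -1 and 1.

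The family stood close to the background of the array in overlap of groups and in sign across pairs, less so in p-values. The limma threshold was passed by 1 tested member (3.03 percent), beside 1.18 percent over all. Of the 33 tested probe sets, 7 (21.2 percent) had an unadjusted p under 0.05, beside 13.1 percent of all 13576. The groups did not overlap for 6 (18.2 percent), beside 17.8 percent over all. Of these 6, 3 were higher in the masseter, a pattern of 9.21 percent of all probe sets, and 3 in the tibialis anterior, beside 8.63 percent. A further count, 11 (33.3 percent), kept 1 sign across the 3 numbered pairs, beside 35 percent. The median difference was 0.09 and the median absolute difference 0.27, against 0.02 and 0.22 over all. The median SE was 0.28 for these probe sets and 0.22 over all. At the filter level the members just inside were Wnt7a and Wnt10a, with mean signals of 29.4 and 32.0, and those just outside a probe set of Ctnnb1 and that of Wnt9b, with 27.6 and 27.1. Without the filter, 0 of the 44 members under it passed by limma, beside 0.619 percent of all 22626 probe sets. Of the 44, 1, a probe set of Dvl2, had an unadjusted p under 0.05, beside 9.86 percent of all probe sets in that fit. Both shares include the probe sets above the filter, so they are not a like background for these 44.

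Probe sets of the same gene often disagreed. Of the 20 genes with several probe sets, 12 had 1 above the filter, 5 had several and 3 had none. In 4 of the 5 genes with several, Axin1, Ctnnb1, Ctnnbip1 and Dvl1, the tested probe sets had the same sign, and in Fzd2 they did not. Counting probe sets under the filter, the sign differed within 15 of the 20 genes. The remaining 29 genes were read by 1 probe set each.

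**Figure D5:**
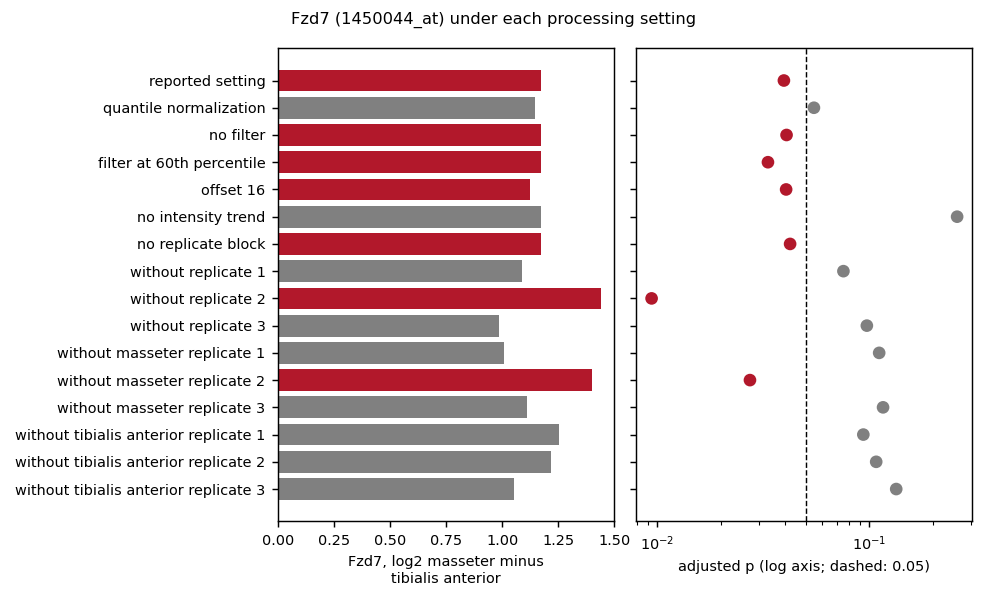
Fzd7 under the reported setting and 15 alternatives, with bars for the log2 difference (masseter minus tibialis anterior) on the left, starting at 0, and the adjusted p on a log axis on the right, coloured where it is under 0.05. The difference stayed between 0.99 and 1.44, while the adjusted p ran from 0.00939 to 0.259.

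Other genes of the pathway, in 8 lists, extended the picture beyond the gene families above. Of 117 measured genes outside them, 80 were tested by their brightest probe set. Tle4 and Tnfrsf19 were higher in the masseter, Ccn1 and Cdh13 were higher in the tibialis anterior, and 76 did not pass. This is 5.0 percent of the 80, beside 1.37 percent of all 8316 genes read in the same way, and the median difference of the 80 was 0.02. The lists were chosen with earlier results known and overlap in function with other pathways, and no list was tested as a set.

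Among nuclear cofactors, 16 genes were tested, of which 1 was higher in the masseter, 0 lower and 15 short of the threshold. Tle4 is a Groucho-type corepressor that Tcf factors recruit in the absence of beta-catenin. Its signals were 274.1, 241.1 and 297.2 in the masseter, against 73.0, 97.8 and 136.2 in the tibialis anterior, with no overlap. The difference, from the 1 tested of its 2 probe sets, was 1.45 ± 0.21 (adjusted p = 0.0188). It was lost with eBayes fitted without the trend (adjusted p = 0.188) and in 5 of the 6 fits that leave out a single array. Its relative Tle1 went the other way, with 111.2, 101.8 and 79.1 against 250.1, 164.6 and 196.1 (-1.06 ± 0.20). Those groups did not overlap either, and the adjusted p = 0.0543 did not pass.

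Among genes reported elsewhere as Wnt targets, 14 were tested, of which 1 was higher in the masseter, 1 lower and 12 short of the threshold, Axin2 among them. Tnfrsf19, a receptor of the tumour necrosis factor family, had signals of 378.8, 255.0 and 151.6 on masseter arrays 1, 2 and 3, against 114.8, 139.7 and 56.3 for the tibialis anterior. The groups were separate, but masseter 3 lay close to tibialis anterior 2. These signals are from the brightest of the gene's 3 tested probe sets, and 0 of the others passed. Its difference was 1.34 ± 0.21 (adjusted p = 0.0275), a call that ended without the trend (adjusted p = 0.219), without the block (adjusted p = 0.178), without replicate 1 or 3 (adjusted p = 0.0581 and 0.0563) and without any single array. Masseter 1 and 3, its highest and lowest, were also those with the most and the least salivary signal, and the part of gland tissue in it was not tested.

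Ccn1, a matrix-associated signalling protein that several pathways induce, had 123.0, 127.8 and 130.3 in the masseter, against 294.9, 403.4 and 570.1 in the tibialis anterior. The masseter arrays were nearly alike and all lower, while the tibialis anterior arrays were spread. The difference was -1.68 ± 0.20 (adjusted p = 0.0093), and the gene's other tested probe set passed as well. The call passed in 13 of 15 alternatives and was lost with eBayes fitted without the trend (adjusted p = 0.148) and without masseter 2 (adjusted p = 0.0531). Ccn2, its relative, had 326.0, 201.3 and 264.2 against 328.0, 275.9 and 522.5 and did not pass (-0.48 ± 0.21, adjusted p = 0.38).

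Among cadherins and catenins, 5 genes were tested, of which 1 was lower in the masseter, 0 higher and 4 short of the threshold. Cdh13, a cadherin held in the membrane by a lipid anchor and abundant in vessels, had signals of 95.3, 136.3 and 127.0 against 212.0, 244.0 and 244.1, with no overlap (-0.98 ± 0.18, adjusted p = 0.0479). Only 1 of the gene's 3 probe sets was tested. The call passed in 4 of 15 alternatives. It was lost without the filter (adjusted p = 0.057), without the trend (adjusted p = 0.238) and whenever a pair or an array was left out. Ctnna1, alpha-catenin, differed by 0.33 ± 0.15 (adjusted p = 0.411).

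In the remaining 5 lists 0 genes passed by limma. The list of other receptors had 5 tested genes and 1 with an unadjusted p under 0.05, Ryk, a Wnt-binding kinase-like receptor with signals of 103.0, 114.4 and 107.6 against 182.3, 144.3 and 210.7. Those groups did not overlap, and the difference was -0.71 ± 0.20 (adjusted p = 0.175). Smo, the hedgehog receptor component related to frizzleds, differed by 0.88 ± 0.40. Of 19 tested genes of planar polarity and other branches, 4 had an unadjusted p under 0.05. They included Prickle1, a planar polarity protein (0.94 ± 0.23, adjusted p = 0.122), and Camk2b, a calcium-dependent kinase (-0.75 ± 0.19, adjusted p = 0.13).

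The destruction complex had 15 tested genes and 1 with an unadjusted p under 0.05, Csnk1a1, the casein kinase that first phosphorylates beta-catenin (-0.43 ± 0.17, adjusted p = 0.325). Frat2, a Gsk3-binding protein, differed by 0.45 ± 0.21. The other extracellular modulators had 6 tested genes, with Sostdc1 at 0.99 ± 0.44 and the glypican Gpc3 at -0.90 ± 0.41. Wnt secretion and other ligands had 2, the Wnt acylase Porcn at 0.36 ± 0.32 and the Wnt carrier Wls at -0.12 ± 0.26. Neither list held a gene with an unadjusted p under 0.05.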

How the data were processed

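The study measured total RNA of 3 masseter and 3 tibialis anterior samples on Affymetrix Mouse 430 2A arrays, per the labels. For every probe set on an array the authors deposited a linear signal intensity. MAS5 and GCOS, the manufacturer's software, are named in the submitters' processing notes, with no settings. The 2% trimmed mean was 150.1 on all 6 arrays, so no further scaling was applied, and medians ran from 44.1 to 50.7. Precision is limited by the number of arrays and, for low signals, by background.

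Gene names came from the platform annotation, and the symbols of all 77 members matched a current gene table by gene identifier. Signals were floored at 1 and then taken to log2. Of 22690 probe sets, 64 controls were left out, and the 13576 of 22626 with a mean log2 signal at or above the 40th percentile (4.84) were fitted with limma 3.58.1 in R 4.3.3 (lmFit, eBayes with an intensity trend). The replicate number of the sample titles was a fixed block, since the design text describes paired comparisons. Tests were two-sided, with Benjamini-Hochberg adjustment over all probe sets fitted and a threshold of 0.05. Mean signals are 2 to the power of the mean log2 signal. A gene outside the families was read by its brightest probe set. The procedure was tested on simulated data.

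The members, the lists and the rule for named genes were chosen with earlier results of these data known. That rule took every member past the threshold and, by role, the 3 with the smallest p and the 2 with the highest signal. It also took all tested Fzd and Sfrp probe sets, Axin2, Ctnnb1, Lrp5, Lrp6, Tcf7l2, Wnt4 and Wnt5a, the pathway genes past the threshold and, in each list, the 2 with the smallest p. Alternatives were quantile normalization, no filter, a filter at the 60th percentile, an offset of 16, no trend, no block, paired SAM over 8 sign patterns, the mean over probe sets and leaving out each numbered pair or, without the block, each array.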

Additional observations from a re-analysis of the deposited data

How the results depend on the processing

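The number of called members was 1 in the reported fit and moved to 0 with quantile normalization (6 at an unadjusted p under 0.05), with eBayes without the trend (3) and with paired SAM, and ran from 0 to 1 when a pair or an array was left out. Among the other pathway genes the count of 4 moved to 0 with eBayes without the trend and to 1 with paired SAM, and ran from 0 to 3 with a pair or array left out. Both counts stayed within 1.5 times without the filter, with the 60th percentile, with the offset and without the block (1 and 3), and the second also with the mean over probe sets (4). Over the whole table the 160 calls became 13 without the trend, 68 with paired SAM, 138 without the block and between 45 and 173 with a pair or an array left out. The causes were not tested, and leaving out a pair or an array also lowers the number of arrays.

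No uncalled member passed in any alternative. The sign of 14 uncalled members changed when a pair or array was left out, with log2 differences from -0.27 to 0.90 for Wnt10a, -0.20 to 0.40 for Wnt2b, -0.52 to 0.16 for Wnt3a, -0.26 to 0.57 for Wnt6, -0.54 to 0.70 for Wnt7a, -0.21 to 0.14 for 1 Fzd2 probe set, -0.10 to 0.27 for Fzd6, -0.24 to 0.044 for Lrp6, -1.26 to 0.31 for Axin1, -0.28 to 0.078 for Axin2, -0.092 to 0.26 and -0.0025 to 0.61 for Ctnnb1, -0.16 to 0.12 for Ctnnbip1 and -0.35 to 0.58 for Dvl2. Wnt6 was also at -0.023 with quantile normalization.

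Deviations from the muscle means correlated at 0.04, 0.15 and 0.10 in same-numbered samples 1, 2 and 3. Masseter 2 and 3 correlated best with the tibialis anterior sample of their own number. Masseter 1 correlated about equally with tibialis anterior 1 (0.039) and 2 (0.041). Such weak correlations do not settle whether the numbers pair the samples, and the replicate block rests on the design text. The Fzd7 call held without the block (adjusted p = 0.0423).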
